A study of Mus musculus with 8 samples.

Results

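The miR-200 family of the mouse is made from 5 genes in 2 clusters. Mir200b, Mir200a and Mir429 lie on chromosome 4, and Mir200c and Mir141 lie on chromosome 6. The 5 genes were followed in small RNA libraries of mouse spleen B cells and of the RNA that precipitated with AGO2 from such cells. Their rows were found by name, through exact match of mm10 coordinates to RefSeq, and the family was picked with earlier results of these data known. They are 5 of the 2202 miRNA genes counted. All 5 had counts in every library and were among the 219 genes with enough counts to be tested.

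The libraries fall into 4 groups of 2: proliferating immunoprecipitate (IP), resting IP, proliferating input and resting input. All came from mice of the genotype Ago2HA/HA, in which the Argonaute protein AGO2 carries an HA epitope on both alleles, and the IP was made with an anti-HA antibody. Resting B cells were purified from spleen by removing cells that bear CD43, and proliferating cells were such cells after activation in culture. The sources used here do not give the activating agent, its duration or the strain, age and sex of the mice. According to the labels, the anti-HA IP from mice lacking the epitope gave nothing to sequence, so each IP is set against its input. Whether a pair of libraries stands for different mice is not stated, and p-values therefore reflect the spread of these samples alone, possibly a technical one.

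miRNAs of the miR-200 family are known for holding epithelial cells in their epithelial state. They repress the mRNAs of ZEB1 and ZEB2, which are themselves repressors of the E-cadherin gene. In cells of epithelial origin that make them, the ZEB proteins can in turn repress the miR-200 genes by binding E-box motifs in their promoters. A miRNA guides AGO2 to its targets mainly through its seed, bases 2 to 8 of the mature strand. The family is known mainly from epithelia, and its level here was low: the 5 genes together took from 0.0380% to 0.209% of a library's counts.

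The 5 genes give 2 seeds on their 3p arms, and the seeds cut across the clusters, which is why the 3p sequences are shown first. Mature sequences are RefSeq's for GRCm38.p6 (mm10), matched for all 5 genes, with the seed in capitals.
miR-200b-3p: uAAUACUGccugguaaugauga
miR-429-3p: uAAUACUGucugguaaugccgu
miR-200c-3p: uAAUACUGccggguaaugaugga
miR-200a-3p: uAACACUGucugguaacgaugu
miR-141-3p: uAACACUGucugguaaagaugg
The seed AAUACUG belongs to miR-200b, miR-429 and miR-200c, and the seed AACACUG to miR-200a and miR-141. Relative to miR-200b-3p, both members of the second group carry U4C, counted from 1 at the 5′ end, and this is the one change within the seed. Each cluster therefore holds genes of both seeds. Over the first 22 bases the closest pairs lie in different clusters: miR-200b-3p and miR-200c-3p share 20 bases, as do miR-200a-3p and miR-141-3p, while within clusters 18 bases are shared in each pair. None of the other mature sequences in the RefSeq table, which holds 1738 in all, has either seed.

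The opposite arms differ more. Compared by position without gaps, 5 to 17 bases were identical among the 10 pairs, against 17 to 20 for the 3p arms. All values under 14 come from pairs with miR-429-5p, whose sequence is offset against the others. They therefore overstate its difference, and the remaining pairs share 14 to 17 bases.
miR-200b-5p: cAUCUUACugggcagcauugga
miR-200a-5p: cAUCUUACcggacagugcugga
miR-429-5p: gUCUUACCagacaugguuaga
miR-200c-5p: cGUCUUACccagcaguguuugg
miR-141-5p: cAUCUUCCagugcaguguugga
They are shown because each deposited count covers a whole hairpin, so reads of the 5p and the 3p arm cannot be separated. A difference between genes below may lie in either arm.

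All 5 hairpins lie on the minus strand. On chromosome 4, Mir200b (ENSMUSG00000065549.3, chr4:156055681-156055750) comes first in the direction of transcription, followed after 695 nt by Mir200a (ENSMUSG00000065400.1, chr4:156054896-156054985) and after another 908 nt by Mir429 (ENSMUSG00000065427.1, chr4:156053905-156053987). The RefSeq lncRNA gene Gm13648 (chr4:156052715-156059802, same strand) spans all 3, and Mir200b starts 4052 nt after the start of Gm13648. On chromosome 6, Mir200c (ENSMUSG00000065462.3, chr6:124718322-124718390) and Mir141 (ENSMUSG00000065474.1, chr6:124717914-124717985) are 336 nt apart. They lie between genes: Phb2, a prohibitin gene, lies 968 nt from Mir141, and Ptpn6, which encodes the haematopoietic phosphatase SHP-1, lies 2316 nt from Mir200c. No other counted feature overlaps any of the 5 hairpins, so no gene on the opposite strand shares their reads.

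**Figure D1:**
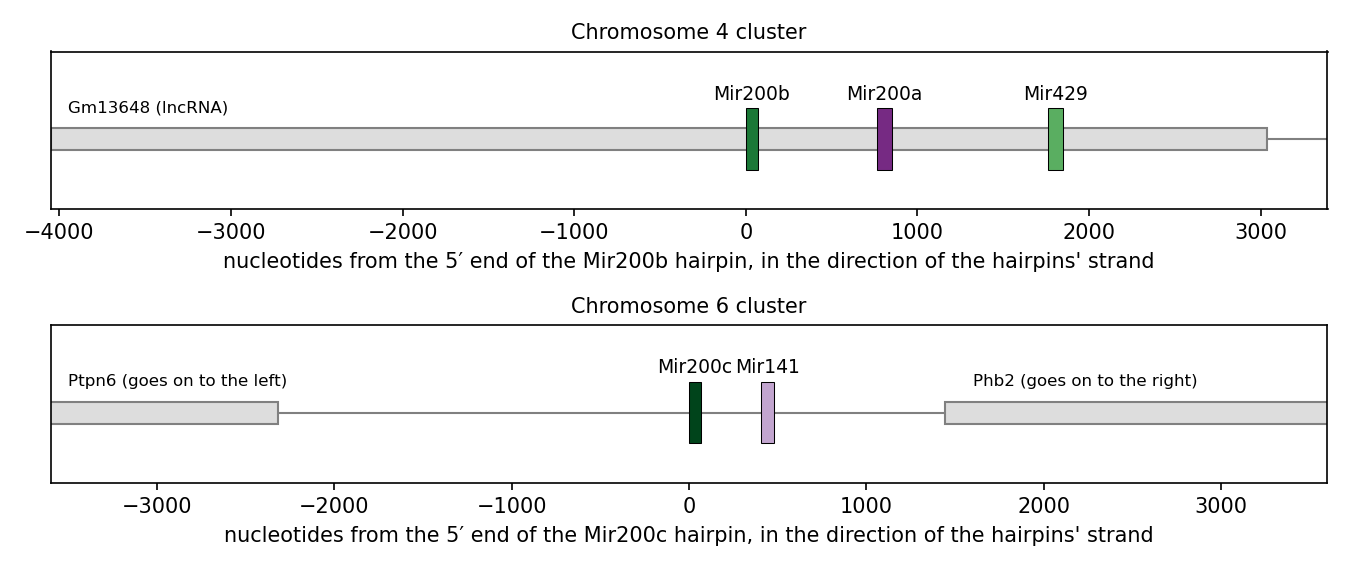
Maps of the clusters, drawn in the direction of the hairpins' strand, with distance in nucleotides from the 5′ end of the first hairpin on the x axis. Coloured boxes are hairpins and grey boxes are other RefSeq genes. The chromosome 4 hairpins lie inside Gm13648 and span 1846 nt, while those on chromosome 6 span 477 nt between Ptpn6 and Phb2.

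The start of Gm13648 is the annotated promoter nearest upstream of the chromosome 4 cluster, and its sequence is shown because 3 of the members lie in that transcript. The RefSeq window (chr4:156059753-156060052, minus strand, mm10) runs from 250 bases before the start to 50 from it, with CACCTG in capitals.
Gm13648 promoter: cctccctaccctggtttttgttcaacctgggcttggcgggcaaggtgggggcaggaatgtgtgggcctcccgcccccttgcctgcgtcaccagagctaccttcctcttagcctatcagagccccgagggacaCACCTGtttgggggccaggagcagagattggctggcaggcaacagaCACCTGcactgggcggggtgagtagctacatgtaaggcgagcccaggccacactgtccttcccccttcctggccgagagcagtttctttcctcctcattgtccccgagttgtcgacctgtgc
CACCTG is an E-box to which ZEB proteins can bind. It was searched on both strands, as CACCTG and CAGGTG, and was found 2 times, 118 and 72 bases before the start, without overlap. Of 32851 promoter windows of this length, 20.2% held at least 1 match and 2.88% held at least 2. The match is a description of these letters and not a measured binding site.

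Library totals ran from 795229 to 1376045 counts in the proliferating IPs, from 788869 to 1681148 in the resting IPs, from 213418 to 276287 in the proliferating inputs and from 358764 to 386598 in the resting inputs. The correlation between the libraries of a group was r = 0.960 to 0.981 over the 219 tested genes, on log2 CPM (counts scaled to library size). Mir150 and Mir155, miRNAs of resting and of activated lymphocytes, differed between the states: Mir150 was lower by 3.54 and Mir155 was higher by 3.37 on the log2 scale in proliferating than in resting input. CPM below are scaled with edgeR's TMM factors. Fold changes are edgeR's log2 values with their standard error (SE), and a call means an adjusted p under 0.05 in edgeR's quasi-likelihood test, with Benjamini-Hochberg adjustment over all 219 genes. Mir150 and Mir155 come from a list of 5 lymphocyte miRNAs. From the same list, Mir181a-1 (-0.43) and Mir181b-1 (0.04) were not called between the inputs. Mir142, which overlaps Mir142b on the opposite strand, had no count in any library.

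The summed level of the family followed cell state, although not every member did so in the input. Summed over the 5 genes, the proliferating IPs had 513 and 443 CPM and the resting IPs 2619 and 2080 CPM. The proliferating inputs had 457 and 568 CPM and the resting inputs 1293 and 1034 CPM. The resting IPs were the highest of the 4 groups, the resting inputs came next, and the ranges of the proliferating IPs and inputs overlapped. In bulk samples, fewer cells that make an RNA and less of it per cell cannot be told apart.

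The chromosome 6 genes held most of these counts. Their part of the family was 88.6% and 89.7% in the proliferating IPs, against 76.6% and 71.9% in the resting IPs. It was 80.2% and 91.4% in the proliferating inputs, against 78.4% and 70.8% in the resting inputs. Mir200c and Mir141 had 2745 and 2779 counts over all libraries, against 861 for Mir200b, 411 for Mir429 and 348 for Mir200a. By counts the 2 genes of chromosome 6 led the family in 7 of 8 libraries. The exception was resting input replicate 1, where Mir200a had 77 counts and Mir200c 74. Per nucleotide of hairpin, a scale chosen after seeing the data, they led in all 8. Among all features Mir141 ranked 45 and 50 in the resting IPs and Mir200c 47 and 46. The lowest counts were those of Mir200a and Mir429 in the proliferating inputs, where a single library had as few as 3, and 6 of the 40 values of the members were under 10 counts.

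Proliferating and resting cells were compared first within the IP, which asks for the level of each miRNA relative to the others recovered with AGO2. A change in the total amount of miRNA bound to AGO2 would not be seen. All 5 genes fell in proliferating cells, where 52.1% of the tested genes were called in either direction, 28.3% higher and 23.7% lower. The size of the fall differed, from 3.34-fold for Mir200c to 16.3-fold for Mir200b. The median of the 5 log2 fold changes was -2.63, beside 0.21 over all tested genes.

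Mir200b, the first hairpin of the chromosome 4 cluster, was at 20.5 and 22.9 CPM in the proliferating IPs, against 372 and 345 CPM in the resting IPs. Its fall, of 4.03 on the log2 scale (SE 0.53, edgeR adjusted p = 2.8e-08), was the deepest of the 5, and the groups were far apart. Mir429, the last hairpin of that cluster, which shares the seed of Mir200b, was at 24.9 and 10.2 CPM in the proliferating IPs, against 191 and 126 CPM in the resting IPs. It fell by 3.21 (SE 0.68, edgeR adjusted p = 1.0e-04). Mir200a, which lies between them, was at 13.2 and 12.7 CPM in the proliferating IPs and at 49.3 and 114 CPM in the resting IPs. The resting libraries differed from each other for this gene, but both stood above the proliferating ones, and Mir200a fell by 2.63 (SE 0.65, edgeR adjusted p = 7.2e-04).

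On chromosome 6, Mir141 was at 181 and 127 CPM in the proliferating IPs, against 1025 and 659.8 CPM in the resting IPs, and fell by 2.46 (SE 0.37, edgeR adjusted p = 4.9e-07). Mir200c was at 274 and 270.5 CPM in the proliferating IPs and at 982 and 835 CPM in the resting IPs. Its fall of 1.74 (SE 0.36, edgeR adjusted p = 8.0e-05) was the smallest of the family, although its groups did not overlap. In none of the 5 genes did a proliferating IP reach a resting IP, and 74.9% of the 219 tested genes likewise had groups that did not overlap in one direction or the other.

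**Figure D2:**
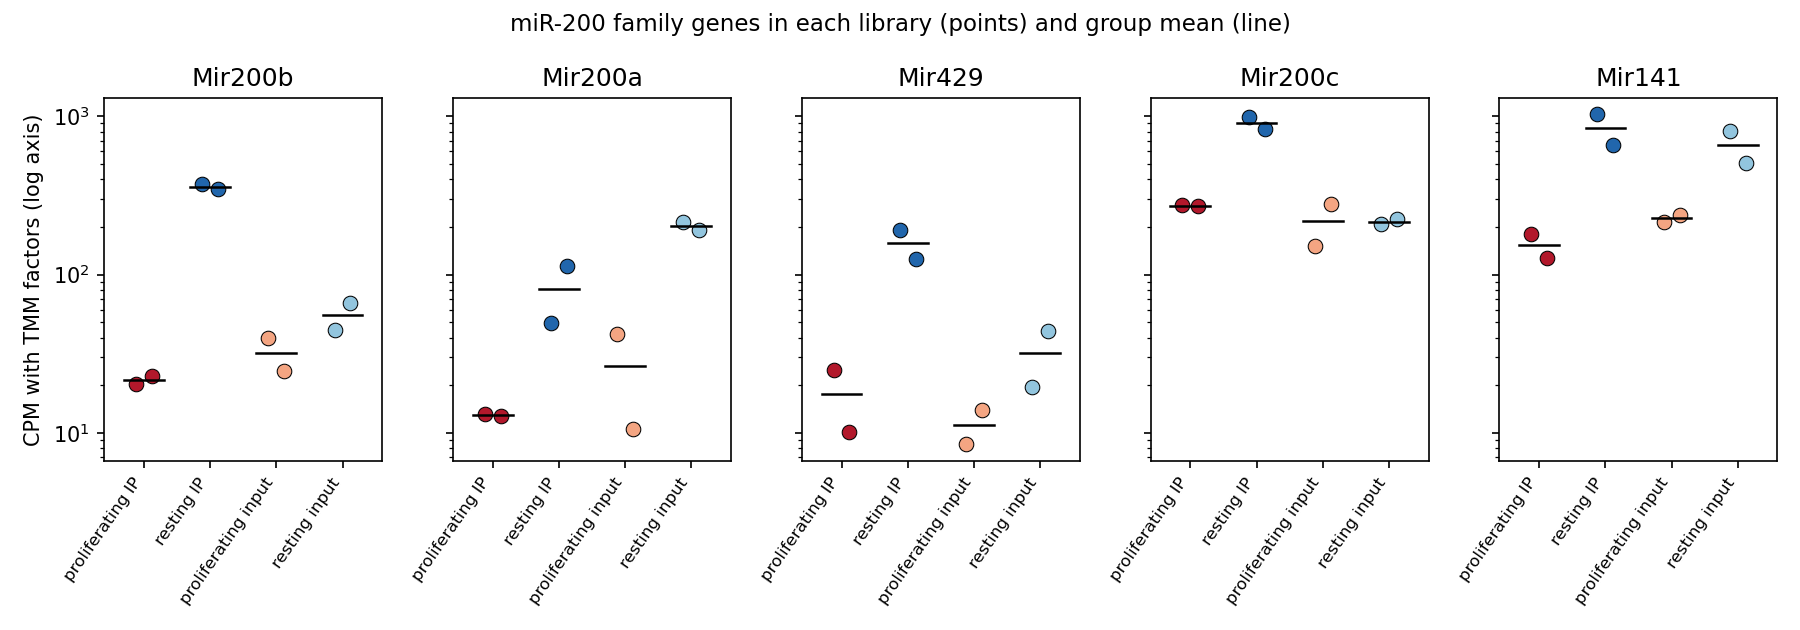
CPM with TMM factors (log axis) of the 5 genes in the proliferating IP, resting IP, proliferating input and resting input, with each point a library and each line the mean of 2. The resting IP stands highest for Mir200b, Mir429 and Mir200c, while the resting input stands highest for Mir200a, at 216 and 192 CPM.

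In the input, which holds all small RNA of the cells, the family behaved less uniformly. Both genes with the seed AACACUG were called lower in proliferating cells and none of the 3 genes with the seed AAUACUG was, against a background of 49.3% of tested genes called in either direction, 26.0% higher and 23.3% lower. The difference between the seed groups was itself not tested, and it is a difference in calls. The log2 fold change of Mir429 (-1.52, not called) was close to that of Mir141 (-1.54, called). Mir200a was at 42.3 and 10.5 CPM in the proliferating inputs, against 216 and 192 CPM in the resting inputs, a fall of 2.89 (SE 0.67, edgeR adjusted p = 4.5e-04). The lower of its values rests on 3 counts. Mir141 was at 214 and 238 CPM in the proliferating inputs, against 806 and 508 CPM in the resting inputs, and fell by 1.54 (SE 0.37, edgeR adjusted p = 8.4e-04).

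Mir200c, by contrast, was at 152 and 281 CPM in the proliferating inputs and at 207 and 223 CPM in the resting inputs. The resting values lie inside the range of the proliferating ones, and the 95% interval of its log2 fold change ran from -0.74 to 0.74. Mir200b was at 39.5 and 24.6 CPM in the proliferating inputs and at 44.8 and 66.3 CPM in the resting inputs (log2 fold change -0.78, SE 0.57, edgeR adjusted p = 0.24). Mir429 was at 8.47 and 14.03 CPM in the proliferating inputs and at 19.6 and 44.2 CPM in the resting inputs (log2 fold change -1.52, SE 0.83, edgeR adjusted p = 0.12). Groups did not overlap for these 2 genes, which was also so for 78.5% of the 219 tested genes. Counts of 3 to 27 leave wide intervals, from -1.93 to 0.37 for Mir200b and from -3.21 to 0.16 for Mir429. The comparisons within the IP and within the input use different libraries.

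IP and input were then compared in each state, which asks whether a miRNA is over- or under-represented with AGO2. In resting cells Mir200b, Mir429 and Mir200c, the genes with the seed AAUACUG, rose in the IP, and the genes with the seed AACACUG were not called. Of all tested genes 28.8% were called in either direction and 13.2% were higher. The rises ranked 8, 10 and 14 from the highest among the 219 genes.

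Mir200b was at 372 and 345 CPM in the resting IPs, against 44.8 and 66.3 CPM in the resting inputs, a rise of 6.41-fold (log2 fold change 2.68, SE 0.51, edgeR adjusted p = 4.3e-05). Mir429 was at 191 and 126 CPM in the resting IPs, against 19.6 and 44.2 CPM in the resting inputs, a rise of 4.91-fold (log2 fold change 2.30, SE 0.67, edgeR adjusted p = 0.0075). Mir200c, from the other cluster, was at 982 and 835 CPM in the resting IPs, against 207 and 223 CPM in the resting inputs, a rise of 4.22-fold (log2 fold change 2.08, SE 0.37, edgeR adjusted p = 2.2e-05). In all 3 the IP libraries lie above the input libraries, and of all 219 tested genes 68.0% had groups that did not overlap. Mir429 had small counts of 7 and 18 in the resting inputs. Its call was lost without resting IP replicate 1 (log2 fold change 1.89) and without resting input replicate 1 (1.84).

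Mir200a went the other way in both libraries, at 49.3 and 114 CPM in the resting IPs, against 216 and 192 CPM in the resting inputs. The groups did not overlap, but at a log2 fold change of -1.33 (SE 0.58) the edgeR adjusted p was 0.082, above the threshold. It was called without resting IP replicate 2 (-2.31, edgeR adjusted p = 0.011). Mir141 was at 1025 and 659.8 CPM in the resting IPs and at 806 and 508 CPM in the resting inputs, with overlapping ranges. Its log2 fold change was 0.36 (SE 0.35, edgeR adjusted p = 0.47), with a 95% interval from -0.35 to 1.07, so a change of the size seen for Mir200c lies outside that interval.

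In proliferating cells none of the 5 genes was called between IP and input by edgeR, where 26.9% of the tested genes were called, and none had an unadjusted p under 0.05. The log2 fold changes ran from -1.06 (SE 0.72) for Mir200a to 0.61 (SE 0.84) for Mir429, with Mir200b at -0.57 (SE 0.57), Mir141 at -0.56 (SE 0.37) and Mir200c at 0.34 (SE 0.37). With library totals in place of TMM factors Mir141 was called lower (-1.17, edgeR adjusted p = 0.019) and Mir200c was at -0.28. DESeq2 called none of the 5. Depth limits this comparison for the chromosome 4 genes, which had 3 to 15 counts in each proliferating input.

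The difference between the states in IP over input was tested in the same fit. Mir200b and Mir200c passed, both lower in proliferating than in resting cells, against 17.4% of the tested genes called in either direction, 9.59% higher and 7.76% lower. For Mir200b the difference was -3.25 (SE 0.77, edgeR adjusted p = 0.0025), and for Mir200c -1.74 (SE 0.52, edgeR adjusted p = 0.015). Mir429 was at -1.69 (SE 1.10, edgeR adjusted p = 0.30), Mir141 at -0.92 (SE 0.51, edgeR adjusted p = 0.23) and Mir200a at 0.27 (SE 0.95, edgeR adjusted p = 0.88). The call of Mir200c was lost without proliferating input replicate 2 (-1.24, edgeR adjusted p = 0.17) and without resting input replicate 1 (-1.69, edgeR adjusted p = 0.071).

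**Figure D3:**
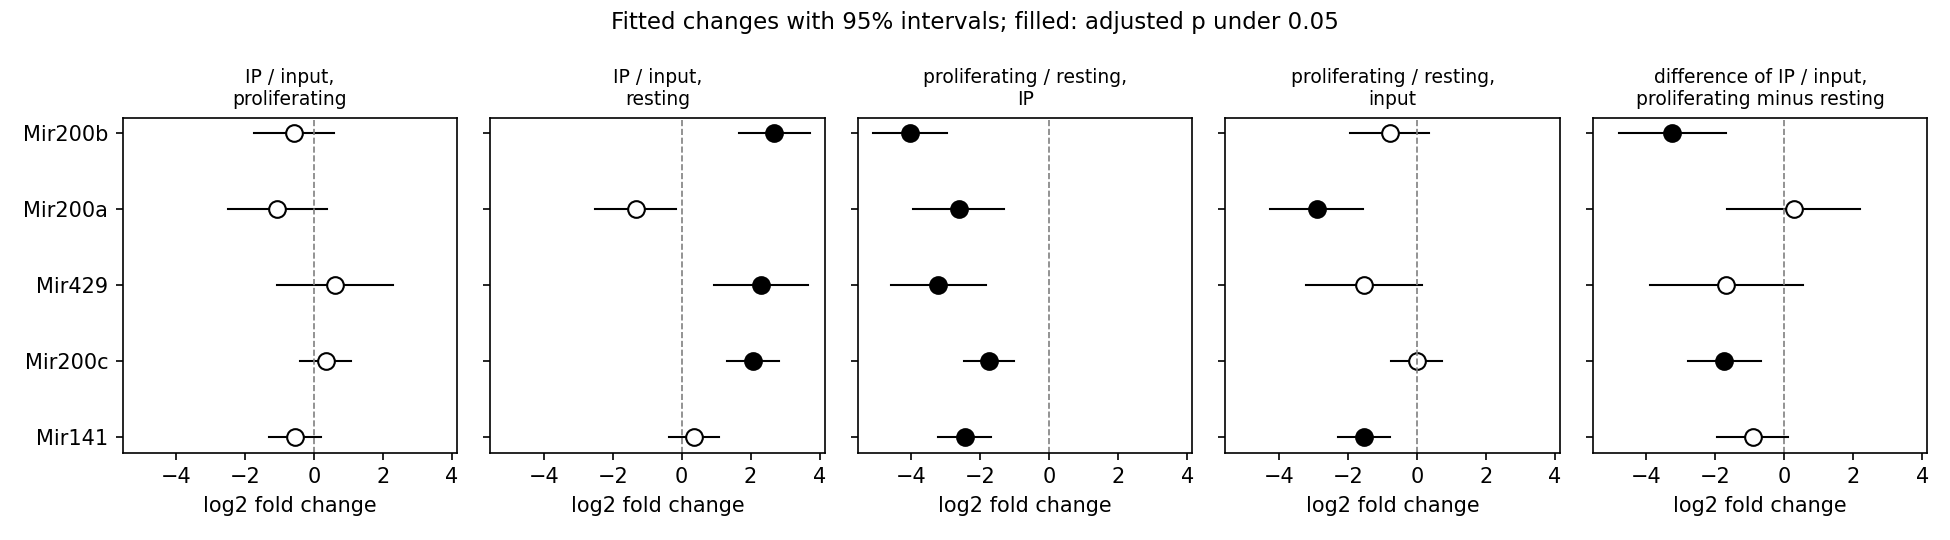
Log2 fold changes of the 5 genes (points) with 95% intervals (lines) in the 4 comparisons and in the difference of IP over input between states, with calls at an adjusted p under 0.05 filled. All 5 points are filled in proliferating over resting IP, and Mir200b, Mir429 and Mir200c are filled in IP over input of resting cells.

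The make-up of each cluster within a library needs no scaling between libraries, since neighbouring hairpins are counted in the same RNA. On chromosome 4, Mir200a made up 8.05% and 19.5% of the cluster's counts in the resting IPs, against 77.0% and 63.4% in the resting inputs. Mir200b made up 60.7% and 59.0% of them in the resting IPs, against 16.0% and 22.0% in the resting inputs. The first and second hairpin of the cluster thus traded places: there were 7.55 and 3.04 Mir200b counts for each Mir200a count in the resting IPs, against 0.208 and 0.346 in the resting inputs. The exact 95% intervals for Mir200a, 6.28% to 10.1% and 15.8% to 23.5% in the IPs against 67.5% to 84.8% and 54.3% to 71.9% in the inputs, cover counting error alone and lie far apart.

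The chromosome 6 cluster shifted in the same sense in resting cells, by less. Mir141 made up 51.1% and 44.1% of its counts in the resting IPs, against 79.6% and 69.5% in the resting inputs. There were 0.958 and 1.27 Mir200c counts for each Mir141 count in the resting IPs, against 0.257 and 0.440 in the resting inputs. By geometric means, IP over input in resting cells was 3.28-fold for the ratio of Mir200c to Mir141. It was 17.8-fold for Mir200b to Mir200a and 14.3-fold for Mir429 to Mir200a. Mir200a and Mir141 together were 41.0% and 37.2% of the family in the resting IPs, against 79.0% and 67.7% in the resting inputs. With 2 libraries a group, an exact permutation test cannot give a two-sided p under 0.333, so these shares are given without a test.

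In proliferating cells the chromosome 6 cluster kept that order with a smaller gap, with Mir141 at 39.9% and 32.0% of its counts in the proliferating IPs, against 58.5% and 45.9% in the proliferating inputs. The chromosome 4 cluster overlapped: Mir200a was 22.5% and 27.8% of its counts in the proliferating IPs, and 46.9% and 21.4% in the proliferating inputs. The share of 21.4% rests on 14 counts, with an exact 95% interval from 4.66% to 50.8%. Mir200a and Mir141 together were 37.9% and 31.5% of the family in the proliferating IPs, against 56.2% and 43.8% in the proliferating inputs. Counts of different miRNAs also depend on how well a library kit captures each, so the shares are read between libraries and not as molar ratios.

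**Figure D4:**
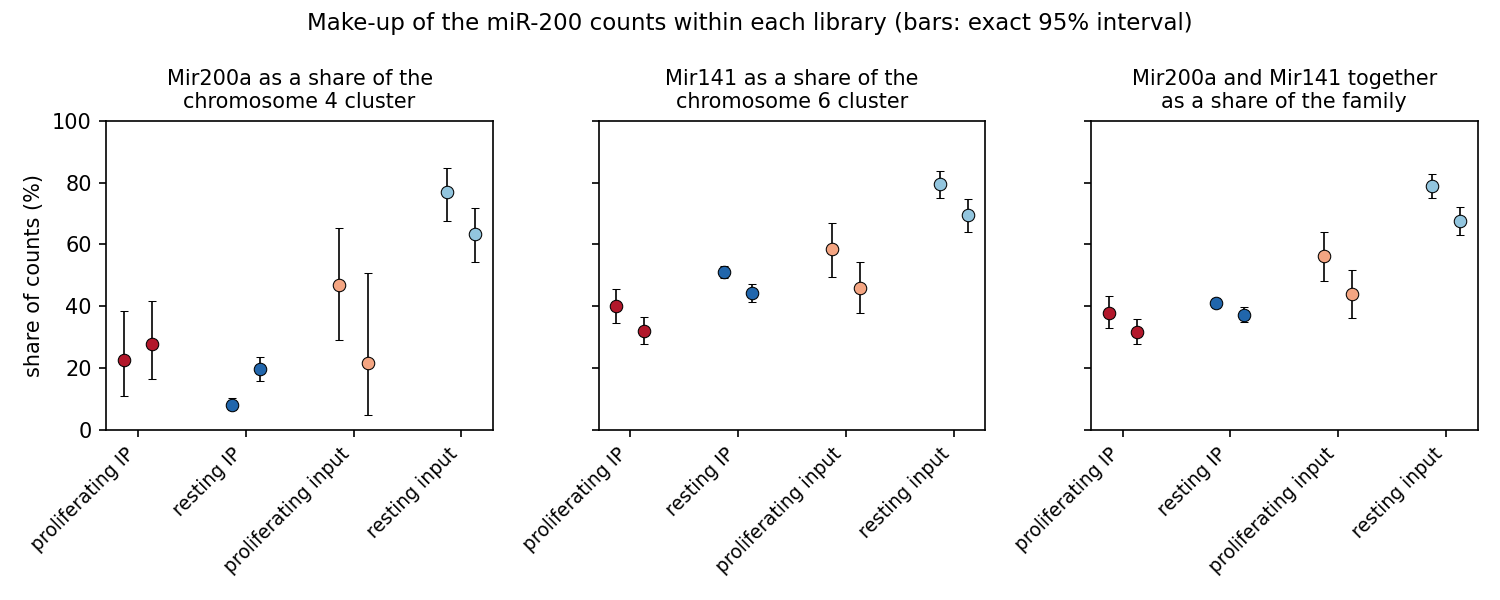
Share of counts (percent) within each library, as points with exact 95% intervals, for Mir200a in the chromosome 4 cluster, Mir141 in the chromosome 6 cluster, and both genes together in the family. In resting cells each share is lower in both IPs than in both inputs, with Mir200a at 8.05% and 19.5% against 77.0% and 63.4%.

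Across the 8 libraries the 5 genes did not all vary together. The log2 CPM of Mir200b and Mir429 correlated with r = 0.921, and those of Mir429 and Mir200c, from different clusters, with r = 0.895. Mir200a and Mir200c had r = 0.0666, and Mir200a and its neighbour Mir200b r = 0.506. These values describe 8 libraries in 4 groups, so they mostly follow the group means.

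The tested genes most like the family sum over these 8 libraries were Mir26a-2 (r = 0.976), Mir1839 (0.965), Mir378d (0.953), Mir340 (0.941) and Mir139 (0.931). Mir26a-2 and, below, Mirlet7f-2 have near-identical copies elsewhere, so their counts are uncertain, and Mir378d had no count in the proliferating inputs. Mir26b was among the closest pair for Mir200b (r = 0.970), Mir429 (0.952) and Mir200c (0.930), beside Mirlet7f-2 for Mir200b (0.973), Mir32 for Mir429 (0.956) and Mir190b for Mir200c (0.933). Mir340 (0.992) and Mir139 (0.966) were closest to Mir141, and Mir1843b (0.95) and Mir203 (0.930) to Mir200a.

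In IP over input of resting cells Mir26b rose by 1.81, Mir32 by 2.06, Mir190b by 2.17 and Mirlet7f-2 by 1.69 on the log2 scale, each called. The genes closest to Mir141 and Mir200a were not called there: Mir340 was at 0.22, Mir139 at 0.38, Mir203 at -0.69 (edgeR adjusted p = 0.16) and Mir1843b at -1.53 (edgeR adjusted p = 0.051). In the difference of IP over input between states, Mir26a-2 (-2.61), Mirlet7f-2 (-2.18), Mir32 (-1.81) and Mir26b (-1.65) were called lower, beside 7.76% of tested genes. Mir190b (-0.95), Mir139, Mir1839, Mir340, Mir378d, Mir203 and Mir1843b were not called in it. These libraries also chose the neighbours, so the neighbours' values are a description.

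**Figure D5:**
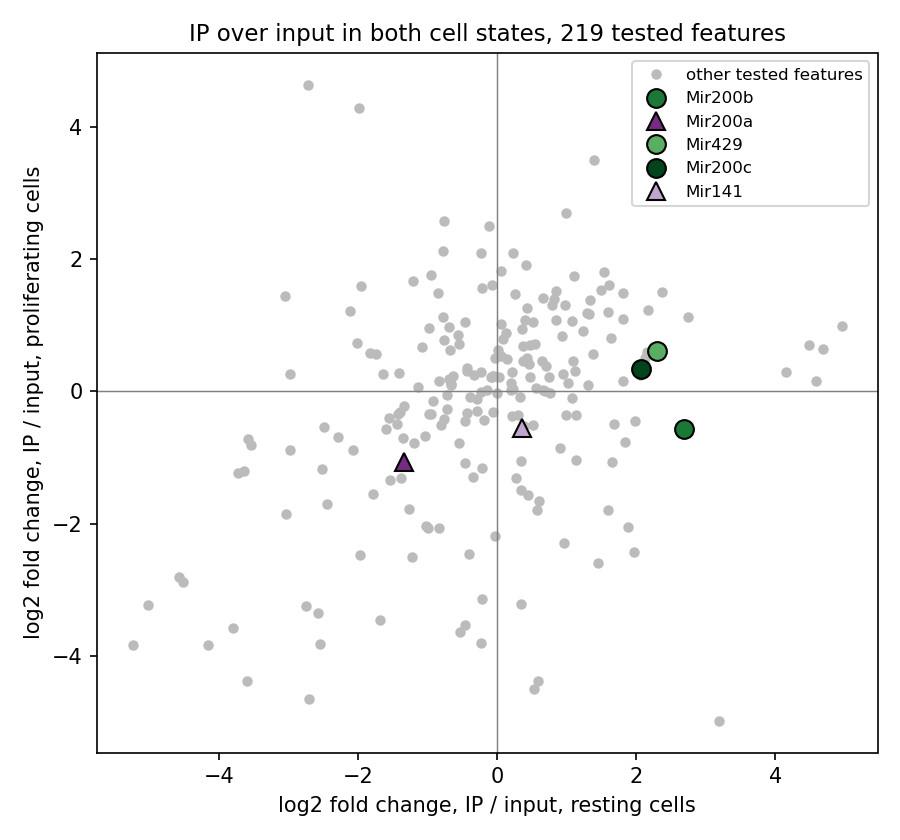
Log2 fold change of IP over input in resting cells (x axis) and in proliferating cells (y axis) for the 219 tested genes, in grey, with the miR-200 genes in colour, circles for Mir200b, Mir429 and Mir200c and triangles for Mir200a and Mir141. The circles lie from 2.08 to 2.68 on the x axis and the triangles at -1.33 and 0.36, while on the y axis all 5 lie between -1.06 and 0.61.

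Other miRNAs known from epithelia were counted to see what moved beside the family. Of 8 listed genes all had a count and 3 were tested, Mir192, Mir203 and Mir194-2. Their list as a whole took 0.102% to 0.103% of the proliferating IPs, against 0.275% to 0.334% of the resting IPs. It took 0.0965% to 0.136% of the proliferating inputs, against 0.266% to 0.315% of the resting inputs. Mir203, a skin and epithelial miRNA that also represses ZEB2, fell in proliferating cells by 1.55 in the IP and by 2.42 in the input. Mir192, found in gut and liver epithelium, fell by 1.55 and by 1.37, and Mir194-2 was not called in either. Of all tested genes 23.7% were called lower in proliferating cells in the IP and 23.3% in the input. None of the 3 was called between IP and input in either state, beside 26.9% of all tested genes in proliferating and 28.8% in resting cells. Over all 8 libraries Mir192 had 9562 counts, Mir203 had 2392 and Mir194-2 had 214. The untested members of the list had 39 counts for Mir215, 9 for Mir31, 8 for Mir205, 6 for Mir375 and 3 for Mir194-1. Mir194-1 and Mir194-2 are copies of the same miRNA, so their counts are uncertain.

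Of a list of 16 miRNAs linked to ZEB proteins or to the epithelial-mesenchymal transition, 10 were tested outside the family. In the IP 4 rose and 5 fell in proliferating cells, beside 52.1% of all tested genes called, with a median log2 fold change of -0.45 against 0.21 over all tested genes. In the input 4 rose and 4 fell, beside 49.3% of all tested genes, with a median of -0.29 against 0.04. The list includes the lymphocyte miRNAs Mir150 and Mir155, which moved in opposite directions. It also includes Mir203, given above with the epithelial miRNAs, and Mir10b, given below with the stromal ones, so these lists share members. In IP over input of proliferating cells 1 rose and 0 fell, beside 26.9% of all tested genes called, and of resting cells 2 rose and 1 fell, beside 28.8%.

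miRNAs of other blood and tissue cells also moved with the state of the cells. Mir223, typical of myeloid cells, was 0.0695% to 0.106% of the proliferating IPs, against 1.45% to 2.94% of the resting IPs. In the inputs it was 0.221% to 0.339% of proliferating and 1.15% to 2.86% of resting libraries. It fell in proliferating cells by 4.59 in the IP and by 3.18 in the input, and its IP over input also differed between the states (-1.40, SE 0.43, edgeR adjusted p = 0.018). In IP over input Mir223 fell by 1.06 in proliferating cells and was at 0.35 in resting cells without a call. The erythroid Mir144 fell by 5.58 in the IP and by 3.42 in the input. These falls rest on 3 and 3 counts in the proliferating IPs and 5 and 5 in the proliferating inputs. Mir486, also listed as erythroid, had 10 counts over all libraries and was not tested. Of 9 stromal and muscle miRNAs 5 had a count and 1 was tested, Mir10b, which fell by 1.77 in the IP, was at -0.90 in the input and rose by 2.38 in IP over input of resting cells. Mir10b had 6 and 5 counts in the resting inputs and 4 and 1 in the proliferating inputs. The endothelial Mir126a, whose reads overlap Mir126b on the opposite strand, rose by 3.74 in the IP and by 1.41 in the input. In IP over input Mir126a rose by 1.48 in proliferating cells and was at -0.85 in resting cells without a call. This difference between the states was also called (2.34). The hepatocyte Mir122 was at -1.86 in the IP without a call and rose by 2.54 in the input, where the resting libraries had 3 and 4 counts. In IP over input Mir122 fell by 2.43 in proliferating cells and was at 1.97 in resting cells without a call. That difference between the states was called (-4.40). Of 3 neural genes in the tables, Mir9-1, Mir9-2 and Mir9-3, none had more than 3 counts in a library. They are copies of the same miRNA, as are Mir199a-1 and Mir199a-2 of the stromal list. The treatment of multi-mapping reads is not known, so low counts of such genes need not mean absence. The part of other cells in the levels of the miR-200 genes was not tested.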

How the data were processed

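Per the labels, the small RNA was prepared with QIAseq miRNA reagents for single-end reads. STAR 2.7.9a, SAMtools 1.15 and mm10 are named in the submitters' processing notes. The 2 deposited tables, for proliferating and for resting cells, hold raw counts of 2202 features from deduplicated alignments, per the file headers. The sources used here do not name the counter, its strand setting or its treatment of multi-mapping reads.

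Features were named by exact coordinates in RefSeq (GRCm38.p6), which named 1179. Counts were fitted with edgeR 4.0.16 in R 4.3.3: filterByExpr with a minimum count of 10, TMM factors (0.797 to 1.34), and a quasi-likelihood model of the 4 groups over 8 libraries, with 4 residual and 36.6 prior degrees of freedom, so most of the spread estimate was shared over features. SE was obtained from the fold change and the F statistic. Intervals of shares are exact (Clopper-Pearson, 95%) and, like the floor of 3 counts, cover counting error only. The floor was 1.78 to 14.1 CPM of library totals. Within no group did the 2 libraries look like a repeat deposit, with a chi-square of at least 8.56 for each degree of freedom. Libraries of different groups were not compared in this way.

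The genes and lists were chosen with earlier results of these data known. Named genes were the 5 members, tested list members, the 5 genes most correlated with the family sum and the 2 most correlated with each member. Further neural and erythroid symbols found no feature. The fit was tested on simulated data. Alternatives were other scalings, other filters, DESeq2 1.42.0, a replicate block, fits of only the groups compared, and leaving out each library.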

Additional observations from a re-analysis of the deposited data

Results flagged for a closer look

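The IP over input differed between proliferating and resting cells for Mir200b, by a log2 difference of -3.25, and for Mir200c, by -1.74, in edgeR's test of the difference itself (adjusted p = 0.0025 and 0.015). Mir200b averaged 21.7 ± 1.71 CPM in the proliferating IP and 32.0 ± 10.6 CPM in the proliferating input, and 358 ± 18.6 CPM in the resting IP and 55.5 ± 15.2 CPM in the resting input (SD, n = 2 each). Mir200c averaged 272 ± 2.14 CPM in the proliferating IP and 216 ± 90.6 CPM in the proliferating input, and 909 ± 104 CPM in the resting IP and 215 ± 11.5 CPM in the resting input. These genes share a seed and lie in different clusters. Mir429, which has the same seed, was not called. The difference was also called lower for genes outside the family, among them Mir26a-2 (-2.61), Mirlet7f-2 (-2.18), Mir32 (-1.81) and Mir26b (-1.65). It was therefore not particular to this seed.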

How the results depend on the processing

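Of 393 log2 fold changes of single members recomputed under the alternatives, 372 kept their direction and side of the threshold. The 5 falls in the proliferating IP and the falls of Mir200a and Mir141 in the proliferating input were called under every alternative run. Counts of members called without each library in turn ranged from 2 to 4 for IP over input in resting cells, from 1 to 2 for the difference between states, and were 1 for that difference without proliferating input replicate 2 or resting input replicate 1. The other counts stayed at 0, 5 and 2. With library totals 1 member, Mir141, was called in IP over input of proliferating cells.

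Only uncalled values turned sign. Mir200a in the difference between states was at -0.046 with upper-quartile factors and -0.14 with library totals and -0.11 without resting IP replicate 1, and ranged from -0.37, without proliferating input replicate 2, to 1.62. Mir200c in the input was at 0.36 with library totals, 0.0040 without a filter, 0.019 with a minimum count of 50 and 0.19 with only the groups compared and 0.06 without resting input replicate 2, and ranged from -0.50 to 0.38, without proliferating input replicate 1. Mir200c in IP over input of proliferating cells was at -0.28 with library totals and ranged from -0.045, without proliferating input replicate 1, to 0.83. There Mir429 ranged from -0.32, without proliferating IP replicate 1, to 1.15, and Mir200a from -1.70 to 0.29, the highest being without proliferating input replicate 1. Mir141 in IP over input of resting cells ranged from -0.068, without resting IP replicate 1, to 0.73. The cause was not tested.

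Over all features, calls for the difference between states were 25 with RLE factors and 22 with upper-quartile factors, against 38, and 15 to 49 without single libraries. For IP over input they were 31 to 65 in proliferating and 49 to 71 in resting cells without single libraries, against 59 and 63. For proliferating over resting cells they were 94 to 115 in the IP and 72 to 119 in the input. Scaling shifted the median log2 fold change of all features by up to 0.67, with upper-quartile factors in the IP, where calls were 38 higher and 75 lower, against 62 and 52. Other splits of calls that moved were 39 higher and 59 lower with upper-quartile factors and 75 and 37 with library totals in the input, against 57 and 51. In IP over input they were 33 and 23 with upper-quartile factors against 29 and 34 in resting cells, and 16 and 60 with library totals against 29 and 30 in proliferating cells. For the difference they were 7 and 15 with upper-quartile factors and 7 and 20 with library totals, against 21 and 17.

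Shares of library counts moved by more than the replicate spread with TMM-scaled totals for the chromosome 4 cluster in the resting IP (0.0598%) and the chromosome 6 cluster in the proliferating (0.0426%) and resting IP (0.175%). Per nucleotide of hairpin (chosen after seeing the data) Mir200b was 64.5% of its cluster in the resting IP and 52.4% in the proliferating input, and the chromosome 6 cluster was 90.2% of the family in the proliferating IP.

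Deviations of same-numbered libraries correlated weakly (r from -0.12 to 0.18), which does not exclude pairing. With a replicate block the calls were 60, 62, 109, 100 and 40 (IP over input in proliferating and resting cells, proliferating over resting in IP and input, the difference), and the calls of the 5 members were unchanged.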
